A study of Homo sapiens with 3 samples.

Results

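PC3 and DU145 are established human prostate cancer cell lines, the former from a bone metastasis and the latter from a brain metastasis. The series design places both among castration-resistant cancers, tumours that keep growing when androgen is withdrawn, and sets them against LNCAP, an androgen-dependent line. The comparison described here is between the 2 castration-resistant lines, with 1 RNA sequencing library for each, out of 3 libraries in all. It asks how far the lines that stand for castration resistance differ from each other. The LNCAP library served only for the scaling and as a reference level. Per the labels, all lines grew at 37 °C with 5% CO2 and 10% fetal bovine serum, and no treatment or genetic change is named. The labels list several media without saying which line received which, so the medium may differ between the lines. There is no replicate of either line, so no difference has a replicate check and no p-value is given.

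Prostate epithelial cells hold together through adherens junctions, tight junctions and desmosomes. Carcinoma cells can lose junction genes and gain matrix and motility genes, a set of changes known as the epithelial-mesenchymal transition. Cells that grow without androgen are known to rely on other inputs, among them growth factor receptors, cytokine signalling through STAT3, and the Wnt and activin pathways.

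The PC3 library held 15319045 counts and the DU145 library 15878546, and 25191 and 25288 genes had at least 1 count. The mitochondrial share of counts was 4.35% in PC3 and 5.6% in DU145, and 12 of the 13 mitochondrial protein-coding genes had the lower level in PC3. A count of 0 allows up to 3 counts, which is 0.196 CPM in PC3 and 0.189 CPM in DU145. KLK3, which encodes prostate-specific antigen, had 35507 counts in LNCAP and none in either other line. The simple epithelial keratin gene KRT18 stood at 189.5 and 497.5 normalised CPM in PC3 and DU145. Of the basal markers, KRT14 and TP63 had no counts in either line, while the basal keratin gene KRT15 had counts in PC3. Of 20 stromal, endothelial and immune markers, 4 were compared, and DCN, LUM, CD3E and LYZ had no counts in either line. COL3A1 (122.5-fold) and PECAM1 (26.2-fold) were higher in PC3 and CD14 (7.15-fold, 3 against 22 counts) in DU145. In PC3 the 4 compared markers summed to 67.8 normalised CPM, against 11.7 for DU145.

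Of 58735 annotated genes, the 16512 with at least 1 CPM in PC3 or DU145 were compared. Levels are normalised CPM, that is CPM (counts scaled to a common library size) after TMM scaling between libraries. A gene was called when its scaled counts were at least 4-fold apart and the 95% counting interval of the ratio excluded 1. By this rule 1471 genes were higher in PC3 (8.91%) and 1793 were higher in DU145 (10.9%), so that 19.8% were called either way. A further 9841 genes (59.6%) lay under 2-fold apart, and the median log2 ratio of PC3 over DU145 was -0.0088. Of the genes higher in PC3, 346 had no counts at all in DU145, and of those higher in DU145, 445 had none in PC3. None of the 18 housekeeping genes was called, with a median log2 ratio of -0.24.

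LNCAP sat on either side of these differences. Among the genes higher in PC3, 428 stood in LNCAP at no less than 50% of the PC3 level, and 443 had 3 counts or fewer there. Among the genes higher in DU145, 614 stood in LNCAP at no less than 50% of the DU145 level, and 538 had 3 counts or fewer. Of 742 long intergenic RNA genes, 157 were higher in PC3 (21.2%) and 138 in DU145 (18.6%), against 1005 (7.49%) and 1355 (10.1%) of 13416 protein-coding genes.

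**Figure D1:**
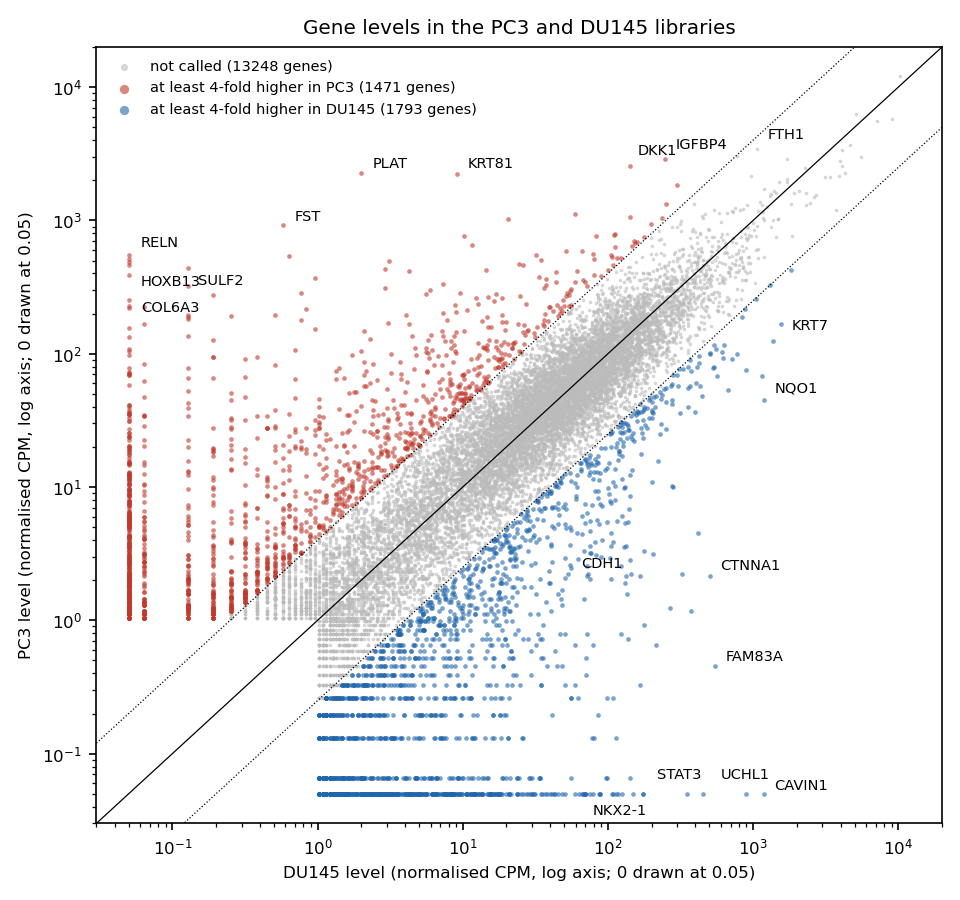
Level of each of the 16512 genes in DU145 (horizontal) and PC3 (vertical), in normalised CPM on log axes, with a count of 0 drawn at 0.05. The solid line marks equal levels and the dotted lines 4-fold differences, and the columns of points at the left and the rows at the bottom are genes with no or very few counts in the other line.

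RELN (chr7:103471784-103989516 on GRCh38), which encodes the matrix protein reelin, had 8434 counts in PC3, 80 in LNCAP and none in DU145, at least 2882-fold higher in PC3. CDH11 (chr16:64943753-65126112), a cadherin of mesenchymal cells and osteoblasts, had 7894 counts in PC3 and none in either other line, at least 2697-fold. FBN2 (chr5:128257909-128659185), a fibrillin gene, likewise had counts only in the PC3 library (7422), at least 2536-fold above DU145. All these bounds take 3 counts in DU145. ADGRF1, an adhesion receptor gene, was at least 2413-fold higher, COL6A3, a chain of type VI collagen, at least 1332-fold, and CDH2, which encodes N-cadherin, at least 1155-fold. HOXB13, the homeobox factor of prostate, had 5909 counts in PC3, 5140 in LNCAP and none in DU145, at least 2019-fold higher in PC3.

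Several genes of this side had a few reads in DU145 and so have a measured ratio. PLAT (chr8:42175233-42207724), which encodes tissue plasminogen activator, stood at 2286 normalised CPM in PC3, 1.98 in DU145 and 1.41 in LNCAP. It was 1156-fold higher in PC3 (95% counting interval 814 to 1701). FST (chr5:53480409-53487134), which encodes the activin-binding protein follistatin, was 1596-fold higher (840 to 3490), at 916 against 0.574 normalised CPM. SULF2, a sulfatase that edits heparan sulfate, had 6724 counts in PC3 and 2 in DU145. By difference in level rather than by ratio, and with mitochondrial and ribosomal protein genes left out, the secreted proteins IGFBP4 and DKK1 led. IGFBP4, which binds insulin-like growth factors, stood at 2866 normalised CPM in PC3 and 246 in DU145, and DKK1, a Wnt antagonist, at 2565 and 141. LNCAP had no counts of either. FTH1, the heavy chain of the iron store ferritin, stood at 3422 and 1069 normalised CPM, 3.20-fold apart and so under the 4-fold threshold.

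CAVIN1 (chr17:42402452-42423517), which encodes a coat protein of caveolae, had 18656 counts in DU145, 18 in LNCAP and none in PC3, at least 6066-fold higher in DU145. UCHL1 (chr4:41256413-41268455), a deubiquitinase gene of neurons and neuroendocrine cells, had 14037 counts in DU145, 27 in LNCAP and none in PC3, at least 4564-fold. STAT3 (chr17:42313324-42388568), the transcription factor of cytokine signalling, had 7105 counts in DU145, 4525 in LNCAP and none in PC3, at least 2310-fold. CAVIN1 and UCHL1 were thus near absent in LNCAP as well as in PC3, whereas for STAT3 the PC3 library alone stood apart. NKX2-1, the homeobox factor of lung and thyroid, had 2724 counts in DU145, 1 in LNCAP and none in PC3, at least 886-fold higher. The long intergenic RNA gene LINC00707 had 2322 counts in DU145 and none in the other lines. TGFBI, which encodes a secreted adhesion protein, had 2222 counts in DU145 and 1 in PC3, 2168-fold higher with a wide interval (389 to 85652). FAM83A was 1193-fold higher in DU145 (579 to 2969). With mitochondrial and ribosomal protein genes left out, the largest differences in level on the DU145 side were those of ACTG1 and ACTB, cytoskeletal actin genes. ACTG1 stood at 1194 normalised CPM in PC3 and 3727 in DU145, and ACTB at 2280 and 4299. They were 3.12- and 1.89-fold apart, under the threshold. The models of RELN, SULF2, DKK1, FAM83A and KRT7 overlap other gene models with reads, and the strand setting of the counting is not given in the sources used here, so reads of such pairs cannot be told apart.

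Of 41 genes of epithelial junctions and their regulators 35 were compared, with a median log2 ratio of -1.53. Among them 16 were higher in DU145 (45.7%), 2 were higher in PC3 (5.71%) and 17 were not called. Here and in the lists below, shares stand beside 8.91% of all genes compared higher in PC3 and 10.9% in DU145. CTNNA1 (chr5:138610967-138935034), which encodes alpha-catenin and ties cadherins to actin, stood at 506 normalised CPM in DU145, 362 in LNCAP and 2.16 in PC3. The difference between the castration-resistant lines was 234.5-fold (95% counting interval 167 to 341), and PC3 alone was low. CDH1, which encodes E-cadherin, stood at 145 normalised CPM in DU145, 786 in LNCAP and 2.22 in PC3, 65.1-fold higher in DU145 (46.4 to 94.2). The polarity gene CRB3 was 59.7-fold higher in DU145, the membrane protease gene ST14 68.5-fold, the tight junction genes LSR 16.5-fold and CGN 9.15-fold, and EPCAM 9.26-fold. ESRP1, a splicing regulator of epithelial cells, had 119 counts in DU145 and 3 in PC3. CDH3, which encodes P-cadherin, had another pattern, with DU145 the only high library. CDH3 stood at 280 normalised CPM in DU145, 10.1 in PC3 and 0.256 in LNCAP, 27.8-fold higher in DU145 than in PC3.

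The remaining catenin genes and several desmosome and claudin genes were not called. CTNNB1, which encodes beta-catenin, stood at 265 normalised CPM in PC3 and 347 in DU145, 1.31-fold apart, and CTNND1 was 1.11-fold apart. CLDN1 was 1.19-fold and CLDN4 3.83-fold higher in PC3. The members that went the other way were the ETS factor gene EHF, at 27.7 against 0.191 normalised CPM (3 counts in DU145), and MAL2, an apical transport gene, 8.91-fold higher in PC3. LNCAP stood at 344 normalised CPM of EHF.

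Mesenchymal genes were divided between the lines. Of 32 listed, 28 were compared, 12 were higher in PC3 (42.9%) and 6 in DU145 (21.4%), with a median log2 ratio of 1.48. Those higher in PC3 were mainly matrix genes and cadherins. FN1, which encodes fibronectin, stood at 377 normalised CPM in PC3, 33.5 in DU145 and 5033 in LNCAP, so that LNCAP was the highest of the 3 libraries. FSTL1, a secreted glycoprotein gene, was 47.9-fold higher in PC3, FBN1 23-fold, COL6A1 7.08-fold and COL6A2 5.62-fold. TWIST1, a transcription factor of the transition, had 541 counts in PC3, 1429 in LNCAP and none in DU145. Its relative TWIST2 had the opposite pattern, at 0.720 normalised CPM in PC3 and 15.4 in DU145, 21.5-fold higher in DU145 (11.8 to 43.6).

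Besides TGFBI and TWIST2, the mesenchymal genes higher in DU145 were SNAI1 at 5.49-fold, a repressor of junction genes, and 3 genes of the contractile cytoskeleton. These were MYL9, a myosin light chain (18.6-fold, 10.9 against 202 normalised CPM), TAGLN (8.49-fold) and TPM1, a tropomyosin (5.82-fold). VIM, which encodes the intermediate filament vimentin, stood at 429 normalised CPM in PC3 and 503 in DU145, 1.17-fold apart, against 3.45 in LNCAP. ZEB1, a repressor of CDH1, stood at 54.0 and 22.3 normalised CPM and was not called.

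**Figure D2:**
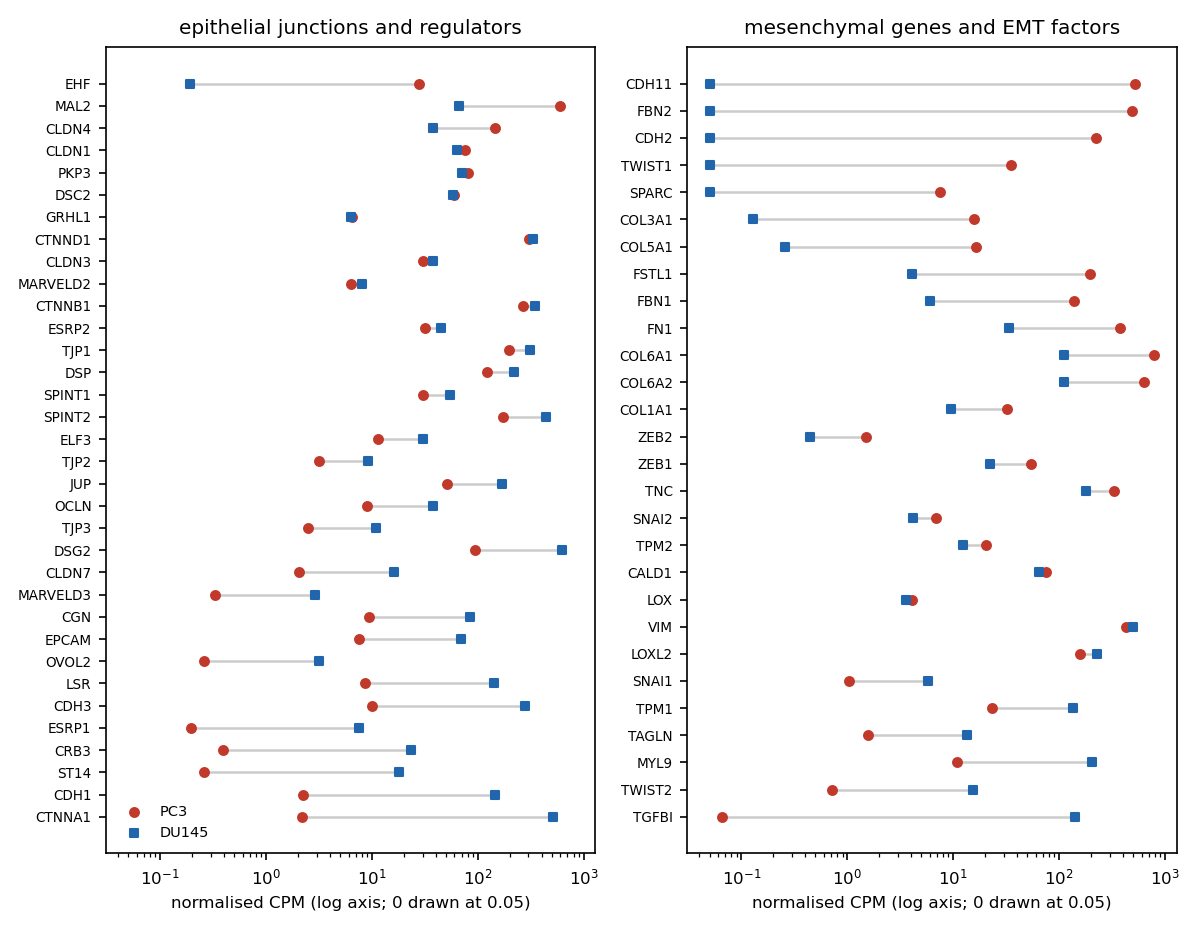
Levels of junction genes (left) and mesenchymal genes (right) that were compared, in normalised CPM on a log axis with 0 drawn at 0.05, circles for PC3 and squares for DU145, sorted by ratio. In the left panel most squares lie to the right of the circles, down to CTNNA1 at 2.16 against 506, and in the right panel CDH11 and FBN2 stand at the top with no DU145 counts and TGFBI at the bottom with 1 PC3 count.

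The promoters of some of these genes are shown because the junction repressors of the SNAI and ZEB families are known to bind a short sequence, CACCTG. The sequences are the 250 bases before the RefSeq start on GRCh38.p14, written from 5′ to 3′ on the gene's strand. Capitals mark CACCTG or its complement CAGGTG.
CRB3 (chr19:6464021-6464270, plus strand): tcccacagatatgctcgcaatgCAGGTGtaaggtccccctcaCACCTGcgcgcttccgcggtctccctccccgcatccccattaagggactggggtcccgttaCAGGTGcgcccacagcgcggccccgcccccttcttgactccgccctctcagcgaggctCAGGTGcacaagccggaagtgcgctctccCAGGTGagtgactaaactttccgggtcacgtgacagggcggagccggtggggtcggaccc
DSG2 (chr18:31497927-31498176, plus strand): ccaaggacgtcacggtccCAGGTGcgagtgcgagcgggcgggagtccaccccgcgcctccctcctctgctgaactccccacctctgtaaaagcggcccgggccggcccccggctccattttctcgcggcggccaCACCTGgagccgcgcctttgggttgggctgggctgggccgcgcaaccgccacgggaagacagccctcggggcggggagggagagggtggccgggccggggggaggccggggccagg
CRB3 holds 5 matches and DSG2, a desmosomal cadherin gene 6.69-fold higher in DU145, holds 2. In windows from 250 bases before to 50 after the start, 5 of the 8 junction genes higher in DU145 with a RefSeq window held a match, and 7 of the 12 uncalled ones did. Over all protein-coding genes, 23.7% of the 1482 windows of genes higher in DU145 held a match. The share was 17% of 1203 windows of genes higher in PC3 and 18.4% of 12879 windows of uncalled genes. It was 18.8% for all protein-coding genes compared and 20.6% of all 35116 windows in the table, which include genes not compared. The windows of the called groups also differed in CpG sites, with a median of 21.5 for DU145, 18 for PC3 and 26 for uncalled genes, and in GC content, with medians of 64.7%, 61.3% and 65.0%. The part of base composition in the difference in shares was not tested. A match is a run of letters and does not show binding.

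Keratins and basal cell genes went both ways, with a median log2 ratio of -0.89. From 24 listed 18 were compared, 3 of them higher in PC3 (16.7%) and 5 in DU145 (27.8%). KRT81, a hair keratin gene, stood at 2239 normalised CPM in PC3, 9.19 in DU145 and none in LNCAP, 244-fold higher in PC3 (207 to 289). It has near-identical relatives next to it, so its reads may be shared with them. The basal keratin gene KRT15 was also called higher in PC3. With 5 added counts it was 3.95-fold and with the deposited FPKM 3.66-fold higher, neither of them a call. KRT7 stood at 168 normalised CPM in PC3, 1558 in DU145 and 0.704 in LNCAP, 9.26-fold higher in DU145. KRT8, the partner of KRT18 in simple epithelia, was 4.04-fold higher in DU145, just past the threshold, and 3.998-fold with library totals only, which is no call, while KRT19 stood at 429 and 419 normalised CPM. LAMB3, a chain of the basement membrane laminin, was 5.36-fold higher in DU145 and COL17A1, a hemidesmosome collagen, 36.4-fold. CAV1, which encodes caveolin-1, stood at 238 and 440 normalised CPM and was not called, although its coat partner CAVIN1 had no counts in PC3.

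Of 22 prostate lineage genes listed, 13 were compared, with a median log2 ratio of 1.06. Among them 6 were higher in PC3 (46.2%), 2 were higher in DU145 (15.4%) and 5 were not called. SPDEF, an ETS factor of luminal cells, stood at 73.9 normalised CPM in PC3, 5.68 in DU145 and 121 in LNCAP, 13.0-fold higher in PC3. DPP4, a surface peptidase gene, was 32.9-fold higher in PC3, at 69.3 against 2.11 normalised CPM. TMPRSS2, an androgen-regulated protease gene, had 130 counts in PC3, 12163 in LNCAP and none in DU145. The pioneer factor gene FOXA1 was 2.08-fold higher in PC3 and was not called. CD24, a surface glycoprotein gene, went the other way at 8.30-fold, with 68.2 normalised CPM in PC3, 566 in DU145 and 21.8 in LNCAP.

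Neuroendocrine markers gave few values, with 10 of 22 compared, 2 higher in each line (20%) and a median log2 ratio of 0.74. FOXA2 was 27.0-fold and ONECUT2 14.7-fold higher in PC3, and UCHL1 and SNAP25 were higher in DU145. CHGA and NEUROD1, which mark neuroendocrine tumours, had 1 count or none in both lines, so their difference was not detectable at this depth.

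HOX genes, which record the position of a cell along the body axis, differed gene by gene within clusters. Of 39 listed, 30 were compared, 4 were higher in PC3 (13.3%) and 9 in DU145 (30%), with a median log2 ratio of -0.40. In the HOXA cluster HOXA13 was 18.9-fold, HOXA9 13.3-fold and HOXA4 19.1-fold higher in PC3, the last from 3 DU145 counts, while HOXA10 stood at 12.6 and 12.4 normalised CPM. In the HOXB cluster HOXB7 was 28.3-fold and HOXB8 10.1-fold higher in DU145, whereas HOXB9, the gene between HOXB8 and HOXB13, stood at 37.5 and 34.9 normalised CPM. In the HOXC cluster the genes higher in DU145 were HOXC10 (16.3-fold), HOXC9 (10.5-fold), HOXC11 (5.85-fold) and HOXC5, the last from 3 PC3 counts and at 2.59-fold, under the threshold, with 5 added counts. HOXC13 stood at 12.7 and 9.96 normalised CPM, below the 28.3 of LNCAP.

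**Figure D3:**
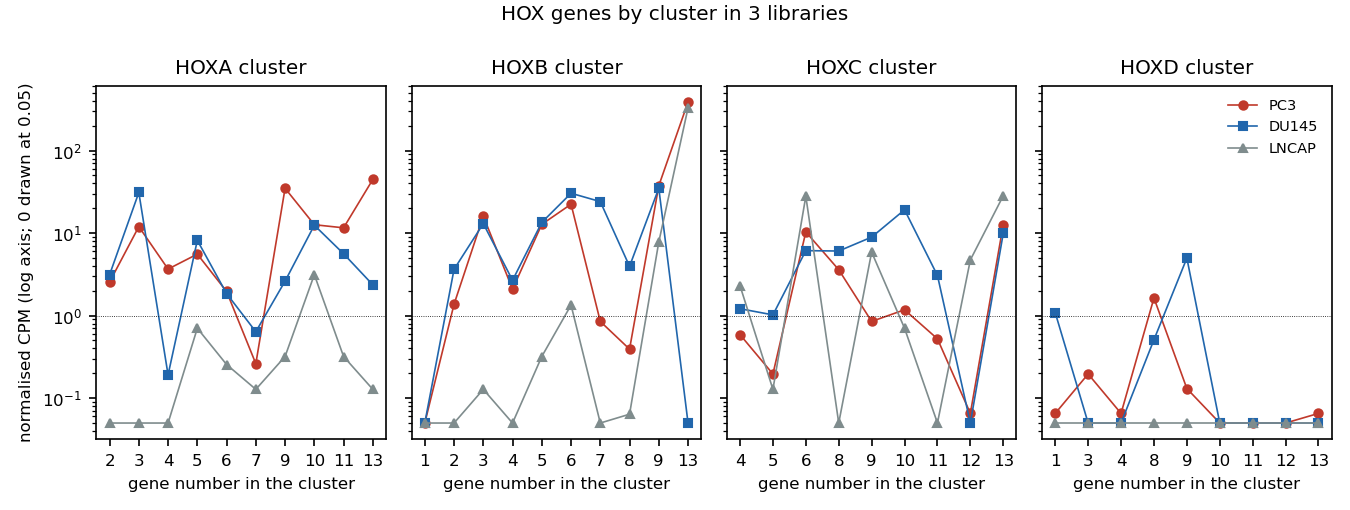
Levels of HOX genes by cluster and gene number in the 3 libraries, in normalised CPM on a log axis with 0 drawn at 0.05 and a dotted line at the 1 CPM minimum. PC3 and DU145 overlie each other at HOXA10 and HOXB9 and part at HOXA13, HOXB7, HOXC10 and HOXB13, where DU145 has no counts.

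Transcription factor genes outside these groups included NR2F1, a nuclear receptor gene, at 432 normalised CPM in PC3, 2.94 in DU145 and 0.0640 in LNCAP. GLI3, a factor of Hedgehog signalling, stood at 170 normalised CPM in PC3 and 3.06 in DU145, and the ETS factor gene ETV1 had 1189 counts in PC3 and 2 in DU145. On the DU145 side EGR1, an immediate early factor, stood at 0.262 normalised CPM in PC3 and 108 in DU145, 415-fold apart (162 to 1523). Among 1177 transcription factor genes compared, 134 were higher in PC3 (11.4%) and 145 in DU145 (12.3%).

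The Wnt, BMP and activin pathways held some of the widest differences. Of 52 genes listed, 46 were compared, 16 were higher in PC3 (34.8%) and 9 in DU145 (19.6%), with a median log2 ratio of 0.16. Among ligands, INHBA and INHBB, which encode the activin subunits, had 3010 and 2892 counts in PC3 and 2 each in DU145. With 4 and 65 counts in LNCAP, PC3 was the high library for both. WNT7A was 33.4-fold and WNT5A 5.36-fold higher in PC3, while WNT5B had 77 counts in DU145 and none in PC3, and BMP4 was 6-fold higher in DU145. GDF15, a stress-induced member of the TGF-beta family, stood at 371 normalised CPM in PC3, 0.957 in DU145 and 1157 in LNCAP, 387-fold higher in PC3.

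Among receptors, FZD8, which binds Wnt proteins, stood at 544 normalised CPM in PC3, 0.638 in DU145 and 6.84 in LNCAP, 852-fold higher in PC3 (463 to 1778). LGR5, a receptor of R-spondins and a stem cell marker, had 555 counts in PC3 and none elsewhere, at least 190-fold, and BMPR1B was 13.4-fold higher in PC3. TGFBR2 stood at 140 and 198 normalised CPM and TGFBR1 at 32.8 and 57.7, neither called.

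Secreted antagonists went both ways. FST (1596-fold), the BMP antagonist gene NOG (105 against 1.98 normalised CPM, 52.9-fold) and DKK1 (18.2-fold) were higher in PC3. SFRP1, which binds Wnt proteins, was 121-fold higher in DU145 (0.654 against 79.0 normalised CPM), and DKK3 had 296 counts in DU145 and 1 in PC3. LTBP1, which stores latent TGF-beta in matrix, was 17.8-fold higher in PC3 and LTBP2 4.42-fold higher in DU145. Among target genes ID2 was 4.44-fold and SMAD6 4.30-fold higher in PC3, and ID1, SMAD7 and AXIN2 were not called.

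In the list named for insulin-like growth factor binding, 10 genes were listed and 8 compared. Of these 3 were higher in PC3 (37.5%) and 1 in DU145 (12.5%), with a median log2 ratio of 1.59. The list is not limited to binding proteins of the growth factors. It holds IGF2BP3, which encodes an RNA-binding protein and was called higher in PC3, but at 3.92-fold with the deposited FPKM, which is no call. IGFBP5 had 2568 counts in PC3 and 1 in DU145, and IGFBP2 had 168 in DU145, 1972 in LNCAP and none in PC3. Of growth factor receptors and ligands, 41 listed and 37 compared, 5 were higher in PC3 (13.5%) and 7 in DU145 (18.9%), with a median log2 ratio of -0.64. KDR and FLT1, the receptors of vascular endothelial growth factor, had 290 and 77 counts in PC3 against 4 and none in DU145. PECAM1, an endothelial adhesion gene, was 26.2-fold higher in PC3 as well, whereas the endothelial markers CDH5 and VWF had 1 count or none in PC3. VEGFC was 6.38-fold higher in PC3. In the other direction EREG, an epidermal growth factor family ligand, was 24.4-fold higher in DU145 (5.36 against 131 normalised CPM), IGF1R 5.32-fold and FGFR3 12.9-fold. MET, the receptor of hepatocyte growth factor, was 3.17-fold higher in PC3 and AXL 1.94-fold higher in DU145, neither called.

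Proteases and their inhibitors, 26 compared of 32 listed, had a median log2 ratio of 1.48. Called higher were 11 in PC3 (42.3%) and 3 in DU145 (11.5%). MMP13, a collagenase gene, had 1934 counts in PC3, 3 in DU145 and 41 in LNCAP. ADAMTS1 had 895 counts in PC3, 12017 in LNCAP and none in DU145, at least 306-fold higher in PC3 than in DU145. Several protease inhibitor genes were on the same side, with SERPINB7 40.9-fold and SERPINB5 30.2-fold higher. PLAU, which encodes urokinase, stood at 470 and 753 normalised CPM and was not called. On the DU145 side were the cathepsin gene CTSL (9.24-fold), its family's inhibitor CST6 (151 counts against 3) and TFPI (6.37-fold), an inhibitor of blood clotting.

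Integrins and laminins gave 5 genes higher in PC3 (21.7%) and 3 in DU145 (13.0%) of 23 compared, with 25 listed and a median log2 ratio of 0.19. LAMA1, a laminin chain of embryonic basement membranes, had 4 counts in PC3 and 1555 in DU145, 379-fold (148 to 1394), and ITGB2, the beta chain of leukocyte integrins, was 11.3-fold higher in DU145. ITGB8 was 12.9-fold and LAMB1 5.81-fold higher in PC3. The direction of this median, and of that of the Wnt and BMP list, changed when low genes were kept, to -0.084 and -0.045.

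Genes of inflammation went both ways. In the NF-kB target and cytokine list 36 genes were listed and 28 compared, with a median log2 ratio of -1.18. Called higher were 5 in PC3 (17.9%) and 7 in DU145 (25%). Of the chemokines that attract neutrophils, 3 were on the PC3 side, with CXCL1 at 35.1 against 2.81 normalised CPM (12.5-fold), CXCL6 13.2-fold and CXCL8 4.02-fold. CXCL8 was just past the threshold, and with DESeq2 size factors it was 3.92-fold, with 5 added counts 3.96-fold and with the deposited FPKM 3.95-fold higher in PC3, none of them a call. LNCAP had no counts of CXCL1 or CXCL6. CXCL2, of the same family, was 3.64-fold higher in DU145 and not called, and IL1B had 77 counts in PC3 and none in DU145. On the DU145 side were CSF1, the macrophage growth factor gene, at 3.34 against 177 normalised CPM (53-fold, 40.2 to 71.4), IL11 at 18-fold and IL6 at 10.2-fold. Feedback and adhesion genes of the pathway were also higher in DU145, TNFAIP2 27.0-fold, TNFAIP3 7.09-fold and ICAM1 6.08-fold. The subunit genes RELA and NFKB1 were 1.09- and 1.59-fold apart and not called.

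Promoters of a gene from each side are shown with matches to GGNNTTNCC, letters found in NF-kB sites, in capitals on either strand. CXCL1 was higher in PC3 and TNFAIP3, an inhibitor of NF-kB signalling, in DU145.
CXCL1 (chr4:73869143-73869392, plus strand): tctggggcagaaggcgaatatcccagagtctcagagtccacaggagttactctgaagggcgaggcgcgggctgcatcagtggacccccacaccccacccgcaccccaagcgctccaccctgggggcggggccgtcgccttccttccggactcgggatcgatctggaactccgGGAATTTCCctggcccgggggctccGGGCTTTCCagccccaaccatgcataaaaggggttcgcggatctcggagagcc
TNFAIP3 (chr6:137867009-137867258, plus strand): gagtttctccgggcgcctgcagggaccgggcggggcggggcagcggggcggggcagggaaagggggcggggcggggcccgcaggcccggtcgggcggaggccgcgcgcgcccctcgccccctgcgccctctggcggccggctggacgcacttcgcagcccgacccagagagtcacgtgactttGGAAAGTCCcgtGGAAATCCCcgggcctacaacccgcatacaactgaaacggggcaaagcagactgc
Each holds 2 matches in these 250 bases. In the longer windows a match stood in 3 of the 5 list members higher in PC3 with a RefSeq window, 5 of the 6 higher in DU145 and 10 of the 11 uncalled. Over all protein-coding genes 17.5% of windows on the PC3 side, 18% on the DU145 side and 18.9% of uncalled windows held the letters. The share was 18.7% for all protein-coding genes compared and 17.1% of all windows in the table.

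Interferon-stimulated genes and antigen presentation genes did not share a direction. Of 41 interferon-stimulated genes listed 36 were compared, 8 were higher in PC3 (22.2%) and 2 in DU145 (5.56%), with a median log2 ratio of 0.13. IFIT2 stood at 43.8 normalised CPM in PC3, 5.74 in DU145 and 5.95 in LNCAP, OAS2 was 15.9-fold and IRF7 4.70-fold higher in PC3, while IFIT1 and ISG15 were not called. All 21 genes of HLA class I and antigen processing were compared, with a median log2 ratio of -1.09. None was higher in PC3 and 8 were higher in DU145 (38.1%). HLA-B stood at 3.86 normalised CPM in PC3, 109 in DU145 and 29.6 in LNCAP, 28.2-fold higher in DU145 (21.8 to 37.2). HLA-C was 5.21-fold higher, the immunoproteasome gene PSMB9 16.5-fold, the peptide trimming gene ERAP2 11.8-fold, and NLRC5, the transactivator of class I genes, 9.49-fold. B2M, which encodes the light chain, was 1.42-fold apart and not called. Class I genes are highly similar and variable in sequence, so reads may be lost or shared between them.

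NRF2 targets and glutathione genes were higher in DU145 in 7 of 32 (21.9%) and in PC3 in none, with a median log2 ratio of -1.32. NQO1, a quinone reductase gene and standard NRF2 target, stood at 67.9 normalised CPM in PC3, 1155 in DU145 and 159 in LNCAP, 17-fold higher in DU145 (16.0 to 18.1). AKR1B1, which encodes aldose reductase, was 145-fold higher in DU145, GSR 6.43-fold and FTL 4.05-fold. GSTM1 had 241 counts in DU145 and none in PC3 or LNCAP. GCLM, a glutathione synthesis gene, was 2.78-fold higher in DU145 and not called, whereas SLC7A11 was 1.65-fold and GSTP1 2.51-fold higher in PC3. The gene of the regulator itself, NFE2L2, was 1.33-fold and its inhibitor KEAP1 1.35-fold apart, in opposite directions.

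Sterol and fatty acid synthesis genes differed mostly in a common direction. Of 29 genes, all compared, 26 had the lower level in PC3, with a median log2 ratio of -1.20. By the rule 6 were higher in DU145 (20.7%) and none in PC3. The called genes were FDFT1 (39.6 against 355 normalised CPM, 8.97-fold), IDI1 (6.44-fold), ELOVL6 (6.06-fold), HMGCS1 (5.90-fold), INSIG1 (5.27-fold) and SCD (4.28-fold). In LNCAP, FDFT1 stood at 255 and HMGCS1 at 143 normalised CPM, nearer to DU145 than to PC3. This did not hold for SCD, at 894 normalised CPM in LNCAP, 428 in PC3 and 1833 in DU145.

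Genes of hypoxia and glycolysis, 30 compared of 32, gave 3 on each side and a median log2 ratio of 0.06. The share of 10% each way was near the 8.91% and 10.9% over all genes. CA12 was 26.1-fold and HK2 5.16-fold higher in PC3, and EGLN3 8.55-fold and PFKP 5.20-fold higher in DU145. YAP and AP-1 genes, all 28 compared, gave 5 in PC3 (17.9%) and 3 in DU145 (10.7%) and a median of -0.031. FOSL1, an AP-1 subunit gene, was 4.25-fold and CTGF, a YAP target, 5.39-fold higher in PC3. F3, which encodes tissue factor, was 91.7-fold higher in DU145 (52.3 to 178), at 0.785 against 72.0 normalised CPM. Its promoter is shown because, of the 5 called genes of this list with a RefSeq window, it alone holds the AP-1 letters TGANTCA, at 2 places in capitals.
F3 (chr1:94541760-94542009, minus strand): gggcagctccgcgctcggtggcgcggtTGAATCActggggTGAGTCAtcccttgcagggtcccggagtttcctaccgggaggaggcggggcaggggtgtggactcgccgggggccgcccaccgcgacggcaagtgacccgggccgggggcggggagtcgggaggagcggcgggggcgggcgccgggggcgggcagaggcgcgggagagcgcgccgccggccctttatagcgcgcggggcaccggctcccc
The share of windows with these letters was 7.35% for genes higher in DU145, 7.32% for genes higher in PC3 and 4.93% for uncalled genes. It was 5.35% for all protein-coding genes compared and 7.71% for all windows in the table, which include genes not compared.

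Cell cycle and replication genes, 35 compared of 36 listed, had a median log2 ratio of -0.55. Called higher were 1 in PC3 (2.86%) and 4 in DU145. The DU145 share, 11.4%, was near the 10.9% over all genes. CDKN2B, a CDK inhibitor gene, was 5.32-fold higher in PC3, while CDKN2A (96.8 against 427 normalised CPM, 4.41-fold), CDKN1A (10.9-fold), CCNE1 (6.70-fold) and MCM4 (4.99-fold) were higher in DU145. RB1 was 1.47-fold apart and not called. Of 27 chromatin modifier genes 2 were higher in PC3 (7.41%) and 1 in DU145 (3.70%), with a median of 0.28. SMARCA4, the ATPase of the SWI/SNF remodelling complex, stood at 506 normalised CPM in PC3, 34.5 in DU145 and 258 in LNCAP, 14.7-fold higher in PC3 (13.4 to 16.0).

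Small lists gave few comparisons. Of 27 cancer-testis antigen genes 5 were compared, with 2 higher in each line (40%) and a median of 0.19. The MAGEA genes among them are near-identical copies. The 4 stromal, endothelial and immune markers compared had a median of 3.20. In bulk RNA fewer cells that express a gene and less RNA in each cell cannot be told apart.

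**Figure D4:**
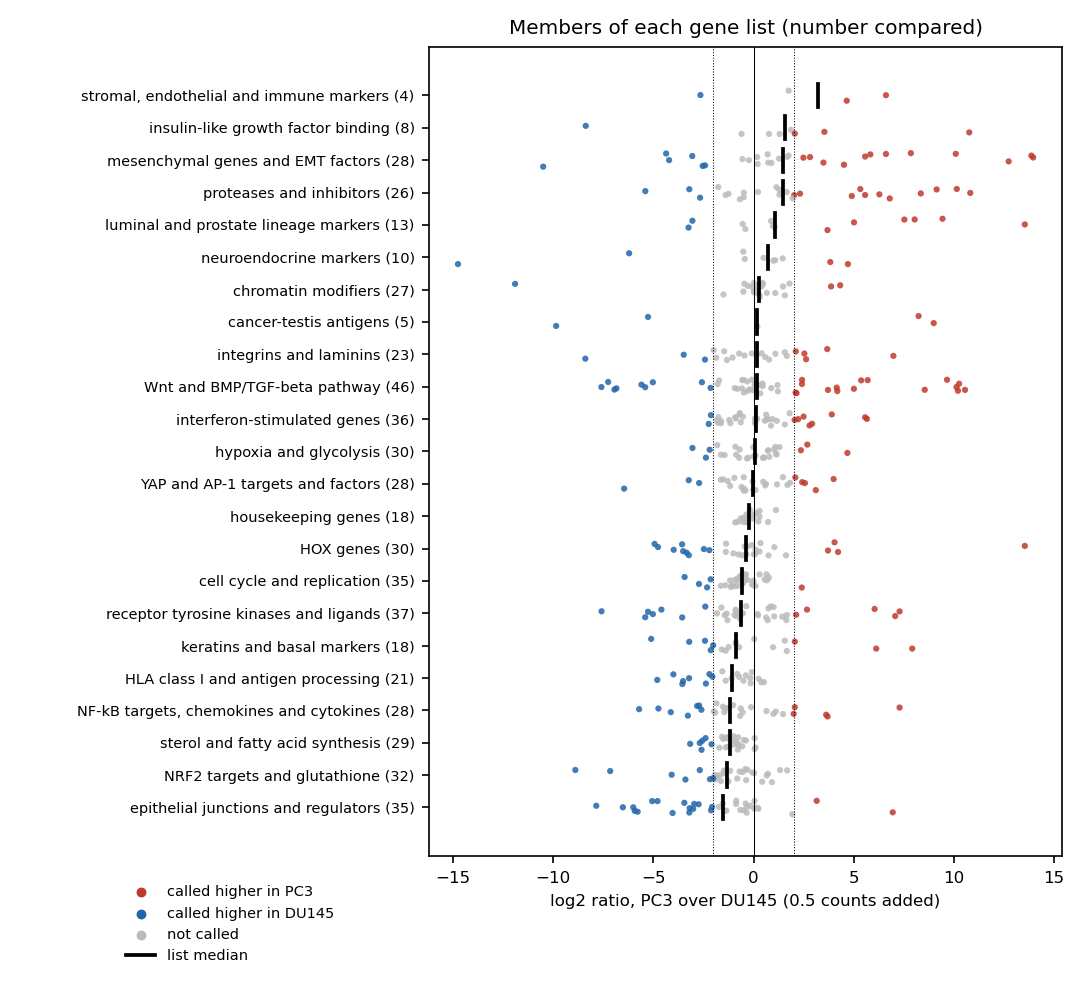
Log2 ratio of PC3 over DU145 for the compared members of the gene lists, 1 point per gene, red when called higher in PC3, blue when called higher in DU145 and grey otherwise, with the list median as a black bar and dotted lines at the 4-fold threshold. Lists are sorted by median, from the junction list at -1.53 at the bottom to the stromal, endothelial and immune markers at 3.20 at the top, where only 4 genes were compared.

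Some differences covered neighbouring genes. Among 13396 protein-coding genes, 537 (4.01%) had 3 counts or fewer in PC3 with at least 1 CPM in DU145, and 336 (2.51%) the reverse. Neighbours were taken in map order among the compared protein-coding genes alone, so lower and non-coding genes between them were passed over. Runs of at least 3 such silent neighbours numbered 5 in PC3 and 8 in DU145. A run could thus be wide, as with CDH12, PRDM9 and CDH6 in DU145 (chr5:21750673-31329146). The run with most genes lay on chromosome 17, from DHX58 to ATP6V0A1 (chr17:42101404-42522611). Its 10 genes together had 3 counts in PC3, 31322 in DU145 and 9980 in LNCAP. It holds the acetyltransferase gene KAT2A, the endosome gene RAB5C, the 3 genes STAT3, STAT5A and STAT5B, and CAVIN1. All 23 gene models inside the stretch, non-coding ones included, had 3 counts in PC3, all of them in ATP6V0A1. Before the stretch ZNF385C had 4 counts in PC3, 37 in DU145 and 4 in LNCAP, 9.02-fold higher in DU145, and C17orf113 had 48 in PC3 and 73 in DU145. After it NAGLU had 212 and 724, and HSD17B1 had 18 and 87 (4.71-fold higher in DU145). CAVIN1 had 18 counts in LNCAP, so for this gene LNCAP was low as well, while KAT2A and STAT3 had 2186 and 4525.

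**Figure D5:**
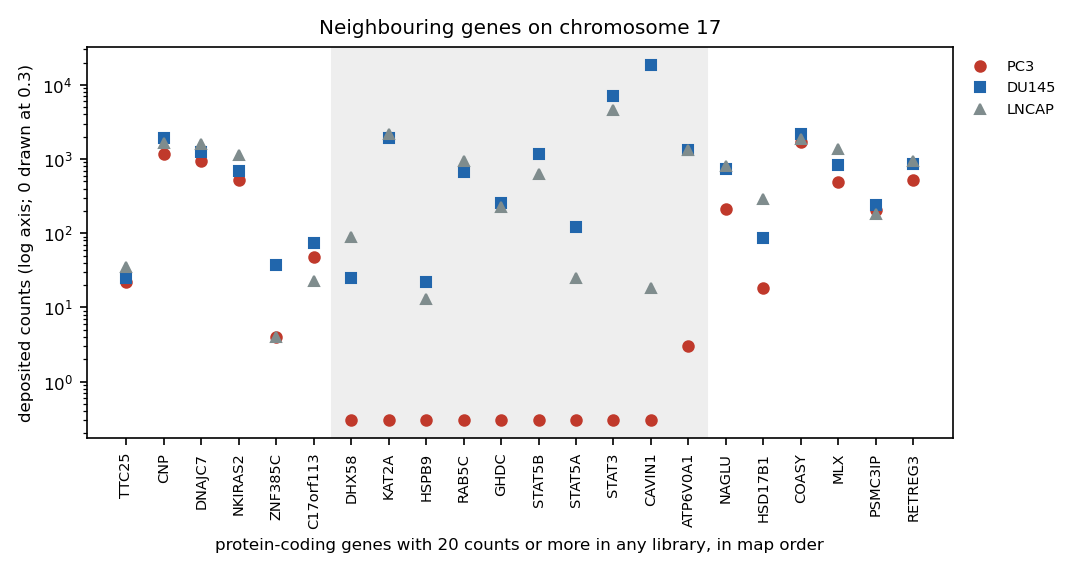
Deposited counts of neighbouring protein-coding genes on chromosome 17 in map order, for the 3 libraries, on a log axis with 0 drawn at 0.3 and the silent stretch shaded. Inside the shading PC3 lies at 0 for every gene but ATP6V0A1, with 3 counts, while genes such as STAT3 have 7105 counts in DU145 and 4525 in LNCAP.

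The other runs in PC3 held 3 or 4 genes each. The metallothionein genes MT1E, MT1M and MT1A on chromosome 16 (56625475 to 56640087), which bind zinc and copper, had 3 counts in PC3, 1574 in DU145 and none in LNCAP. MT2A nearby stood at 123 and 236 normalised CPM and was not called, and the MT1 genes are close copies. The remaining runs in PC3 were VANGL2, SLAMF7 and LY9 on chromosome 1, PDLIM3, TLR3, FAM149A and CYP4V2 on chromosome 4, and FAM167A, BLK and GATA4 on chromosome 8.

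In DU145 the run of highest count was PRAC1, PRAC2, HOXB13 and TTLL6 on chromosome 17 (48721719 to 48817214), with 6370 counts in PC3 and 5559 in LNCAP against 3 in DU145. The mucin genes MUC2, MUC5AC and MUC5B on chromosome 11 (1074875 to 1262172), which encode gel-forming mucins, had 796 counts in PC3, 33 in LNCAP and none in DU145. A run of 7 genes of keratins and keratin-associated proteins on chromosome 17 (40875941 to 41467429) had 237 counts in PC3 and 1 in DU145. Of the others, PTPRR, TSPAN8 and LGR5 on chromosome 12 had 1372 counts in PC3 and 3 in DU145.

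Among protein-coding genes the median log2 ratio was -0.024, and by chromosome it ran from -0.69 on chromosome 9 (550 genes, 4.73% higher in PC3 and 14.5% in DU145) to 0.78 on chromosome X. The next lowest was chromosome 14 at -0.47 and the next highest chromosome 20 at 0.54.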

How the data were processed

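RNA sequencing counts were compared between 1 PC3 and 1 DU145 library. The authors deposited raw read counts per gene as whole numbers, and FPKM values that are another scaling of these counts. Per the submitters' processing notes, the tools were TopHat2 2.0.9, Bowtie2 2.0.6, and Cuffdiff 2.1.1 beside Cufflinks 2.1.1, without their roles. Not given in the sources used here are the counting program, its strand setting and its handling of reads with several matches. Coordinates of 58724 of 58735 gene IDs matched GENCODE 29 (GRCh38). Counts were scaled with TMM factors (edgeR 4.0.16, R 4.3.3) from all 3 libraries. Ratios have exact 95% conditional binomial (Clopper-Pearson) intervals (scipy 1.17.1), which cover counting error only, since reads that carry no molecular identifier need not be independent molecules. Calls add 0.5 counts and need a log2 ratio of at least 2 in size. Bounds use 3 counts per library.

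Named genes were taken from the 15 each way with the largest near bound of the interval and the 5 each way with the largest CPM difference. Both rankings held protein-coding and long intergenic RNA genes only, without mitochondrial, ribosomal protein and Y-linked genes and XIST. Other named genes came from up to 4 called members each way of each list, members that went against their list and the genes of silent runs. Not every gene of these sets is named. Uncalled list members, further called list members, transcription factors outside lists and families in the closing section were picked after their values were seen. The comparison and the lists were chosen with earlier results of these data known. Some genes and lists are not reported here.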

Additional observations from a re-analysis of the deposited data

How the results depend on the processing

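No paired analysis was possible because each line has 1 library. The 51 genes selected by size of difference or in the line identity list kept their direction and call in all 357 recomputed values. These covered 3 other scalings (DESeq2 1.42.0 size factors among them), other filters, 5 added counts and the deposited FPKM. Most of the 51 were picked for a large difference in these same libraries, so their calls could hardly be lost. Their stability does not bear on genes nearer the threshold. The PC3 share of calls ran from 42.6% to 49.3%, against 45.1%. Counts of genes moved with the filter and the threshold, whose construction changes how many can pass. They were 880 higher in PC3 and 1000 in DU145 at 5 CPM, 3254 and 3351 at 2-fold, and 875 and 1162 at 8-fold. Runs of neighbours numbered 8 in PC3 and 17 in DU145 with 10-fold differences in place of silence, and 54 and 39 with runs of at least 2 genes. Without a filter the median log2 ratio of the integrin and laminin list was -0.084 and that of the Wnt and BMP list -0.045, the reverse of the values reported, because low genes entered. The median of the stromal, endothelial and immune markers moved to 0.81 without a filter, 4.66 at 5 CPM and 2.70 with FPKM, that of the cancer-testis antigens to 1.60 without a filter and 4.22 at 5 CPM, and that of the neuroendocrine markers to 1.27 at 5 CPM. Counts of called list members stayed within 1.5 times the reported count in 348 recomputed values and moved further in 16. At 5 CPM the members higher in DU145 fell from 9 to 4 in the Wnt and BMP list and in the HOX list. In the receptor list they fell from 7 to 3, and those higher in PC3 from 5 to 3. Interferon-stimulated genes higher in PC3 fell from 8 to 5 at 5 CPM, and those higher in DU145 from 2 to 0 with FPKM. Of the 207 called list members, 1 lost its call with library totals only, 2 with DESeq2 size factors, 12 with 5 added counts and 23 with FPKM. With 1 library a line, culture, passage and medium cannot be told apart from the line.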

Other observations

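Some gene families, picked after their values were seen, are given beside 8.91% and 10.9% of all genes compared higher in PC3 and DU145. The cadherin and collagen families include genes already given from the lists, among them CDH1, CDH2, CDH3, CDH11, COL6A1, COL6A2, COL6A3 and COL17A1. Of 6 caveolin and cavin genes none was higher in PC3 and 4 were higher in DU145. Beside CAVIN1, CAVIN2 had 1548 counts in DU145 and 1 in PC3, CAVIN3 had 427 and none, and CAV2 was 4.40-fold higher in DU145. Of 12 cadherin genes 6 were higher in PC3 and 4 in DU145. Of 28 collagen genes 9 were higher in PC3 and 6 in DU145, with COL5A2 at 428 against 14.6 normalised CPM (29.4-fold) and COL4A5, a basement membrane chain, 20.5-fold higher in PC3. COL4A4, a chain of the same type IV family, had 250 counts in DU145 and 2 in PC3.

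Of 10 mucin genes 6 were higher in PC3 and 3 in DU145. The gel-forming MUC5B had 575 counts in PC3 and none in DU145, and the trefoil factor genes TFF1 and TFF2, whose peptides are secreted with mucins, had 281 and 184 counts in PC3 and none in DU145. The membrane mucins MUC1 and MUC16 were higher in DU145, MUC1 20.9-fold (16.8 to 26.3) and MUC16 with 242 counts against none, whereas the membrane mucins MUC3A (5.77-fold, 135 against 24 counts) and MUC15 (20 counts against none) were higher in PC3. Cytochrome P450 genes were higher in DU145 in 8 of 19 and in PC3 in none. CYP1B1, which metabolises estrogens, and CYP24A1, which breaks down vitamin D, had 1109 and 1091 counts in DU145 and none in PC3. Of 10 NKX, IRX and ZIC homeobox and zinc finger genes 8 were higher in DU145 and 1 in PC3. FOX genes were split evenly, with 5 of 27 higher in each line. Among them FOXE1, another factor of thyroid and gut development, had 593 counts in DU145 and none in PC3 or LNCAP. Of 9 SOX genes 5 were higher in PC3 and 2 in DU145, and SOX9, a factor of progenitor cells, was 10.7-fold higher in PC3. Zinc finger genes on chromosome 19, 226 compared, had a median log2 ratio of 0.88, and the 237 on other chromosomes 0.24. On chromosome 19, 29 were higher in PC3 (12.8%) and 24 in DU145 (10.6%), and on other chromosomes 14 (5.91%) and 17 (7.17%). Those on chromosome 19 with 3 counts or fewer in 1 line and at least 1 CPM in the other numbered 15 in PC3 and 5 in DU145. On other chromosomes the same counts were 10 and 5. Over all protein-coding genes compared, 4.01% were silent in this way in PC3 and 2.51% in DU145.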
